A study of Mus musculus with 2 samples.

Results

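The lysosome is the acidic compartment in which cells break down proteins, glycans and lipids, and in immune cells it also trims the antigens and the invariant chain that govern MHC class II loading. Its cathepsins are proteases made as inactive precursors, its glycosidases and lipases take sugars and fats apart, and a rotary proton pump, the V-ATPase, keeps the lumen acid. The pump has a membrane sector, V0, which carries the protons, and a cytosolic sector, V1, which splits ATP, and transcription factors of the MiT/TFE family such as Tfeb bind E-box elements near many of the genes concerned.

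Transcripts of these genes were followed in 2 RNA-seq libraries, 1 from pre-pro-B cells and 1 from pro-B cells. The 49 members were chosen by name among 20250 protein-coding genes, 26 from a given list (13 cathepsins and 13 other hydrolases and lysosomal proteins) and 23 because their symbol starts with Atp6v. The pre-pro-B cells lacked *Ebf1* (Ebf1 -/-) and came from the liver of female embryos, whereas the pro-B cells lacked *Rag2* (Rag2 -/-) and came from the bone marrow of adult males, both on a C57BL/6 background. Both were expanded in culture on OP-9 stromal cells with Il-7 at 5 ng/mL, and the pre-pro-B cultures also received Scf and Flt3l at 10 ng/mL each. Genotype, sex, age, tissue of origin and cytokines therefore cannot be told apart from cell type, and with 1 library per cell type no difference below has a replicate check or a test. How many animals or cultures stood behind a library is not given in the sources used here.

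Abundance is given as FPKM, a fragment count scaled by transcript length and by sequencing depth, estimated by the authors for each RefSeq transcript and summed here over the transcripts of a gene. The labels state about 90000000 reads of 97 bases per library. The only error available is the 95% confidence interval that Cuffdiff attached to each transcript within a library, and all 65 member transcripts had an OK quantification status. Changes are log2 differences on the log2(FPKM + 1) scale, pro-B minus pre-pro-B, and genes were called higher or lower from 2-fold upward on that scale. Wherever a pair of values is given for a gene, the pre-pro-B value comes first and the pro-B value second. The targeted gene *Ebf1* had an FPKM of 64 and 273, and *Rag2* had 34.5 and 22.9, values that cover the whole transcript and do not show the deleted part. The 10 B lineage markers examined were all higher by 2-fold or more in pro-B cells (summed FPKM 11.0 and 3809.9). Of 8 early progenitor markers, 6 reached 1 FPKM, and these 6 were at least 2-fold lower (1043 and 3.89, summed over the 8). Among all genes with at least 1 FPKM in a library, 12.2% were higher and 19.1% were lower. Of the B lineage markers 4 were below 1 FPKM in pre-pro-B cells and so had to be higher. Of the progenitor markers 7 were below it in pro-B cells. Among the 6 called lower only *Cd34* reached 1 FPKM in both libraries, and the others had to be lower.

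The E-box letters searched for near the member genes were CACGTG, and the longer TCACGTGA that MiT/TFE factors are known to favour, each of which reads the same on both strands. The stretches shown are the 250 bases before the RefSeq transcript start (RefSeq promoters of build GRCm38.p6, each found once, without mismatch, in the mm9 genome, whose positions are given). They are printed because the genes differ in change and in E-box content, and capitals mark each E-box match, with its flanking bases where the longer form is present. *Ctsd* and *Glb1* were more than 2-fold lower in pro-B cells, *Lamp1* and *Atp6v1a* changed less than 2-fold, and *Ctss* was lower without any match.
Ctsd (chr7:149573733-149573982, minus strand): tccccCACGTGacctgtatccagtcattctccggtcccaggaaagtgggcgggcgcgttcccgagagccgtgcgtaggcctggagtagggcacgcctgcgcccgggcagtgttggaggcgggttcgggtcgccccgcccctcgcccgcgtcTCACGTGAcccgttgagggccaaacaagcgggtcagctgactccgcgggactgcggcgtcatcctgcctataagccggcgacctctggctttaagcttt
Glb1 (chr9:114309946-114310195, plus strand): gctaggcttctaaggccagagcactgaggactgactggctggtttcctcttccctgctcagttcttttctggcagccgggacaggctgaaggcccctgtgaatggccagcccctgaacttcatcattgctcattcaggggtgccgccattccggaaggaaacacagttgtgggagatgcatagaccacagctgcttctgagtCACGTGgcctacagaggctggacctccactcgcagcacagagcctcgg
Lamp1 (chr8:13158911-13159160, plus strand): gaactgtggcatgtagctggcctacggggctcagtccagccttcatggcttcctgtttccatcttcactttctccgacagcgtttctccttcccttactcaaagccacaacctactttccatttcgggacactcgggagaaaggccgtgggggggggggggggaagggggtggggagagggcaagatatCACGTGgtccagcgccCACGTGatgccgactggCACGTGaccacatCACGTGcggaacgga
Atp6v1a (chr16:44139373-44139622, minus strand): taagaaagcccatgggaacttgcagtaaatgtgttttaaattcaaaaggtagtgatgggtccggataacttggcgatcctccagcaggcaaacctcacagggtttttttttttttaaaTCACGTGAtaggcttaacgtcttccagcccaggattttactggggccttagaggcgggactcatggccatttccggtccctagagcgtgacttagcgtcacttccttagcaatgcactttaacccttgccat
Ctss (chr3:95330458-95330707, plus strand): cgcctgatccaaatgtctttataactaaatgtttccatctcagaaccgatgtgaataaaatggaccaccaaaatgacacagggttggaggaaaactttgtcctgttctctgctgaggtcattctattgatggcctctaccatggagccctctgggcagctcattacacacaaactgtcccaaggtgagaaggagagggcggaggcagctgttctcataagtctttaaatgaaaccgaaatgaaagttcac

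Promoter sequences were held for 38 of the 49 members, and 30 of these 38 genes reached 1 FPKM in a library. An E-box lay between 250 bases before and 50 bases after a start in 12 of the 38 (31.6%), against 8.09% of all 27025 genes with a promoter sequence. Each of the 12 reached 1 FPKM, which makes 12 of 30 (40.0%), against 12.2% of the 8581 genes with a promoter sequence and that level. The longer form was found in 5 of the 30 (16.7%), *Ctsa*, *Ctsd*, *Atp6v0d1*, *Atp6v0e* and *Atp6v1a*, against 2.41% of those 8581 genes. These 5 are 13.2% of the 38, against 1.12% of all 27025 genes. The remaining 7 were *Ctsf*, *Ctsl*, *Gaa*, *Glb1*, *Lamp1*, *Lgmn* and *Atp6v0b*. *Lamp1*, which encodes a major membrane glycoprotein of lysosomes, carried 4 E-boxes that began 61, 45, 28 and 15 bases before its start. Among the 30 members measured, 6 of the 12 with an E-box (50.0%) and 10 of the 18 without (55.6%) were lower by 2-fold or more in pro-B cells. Over all genes tested 19.1% were lower. *Ctsf* and *Lgmn*, with an E-box, and *Atp6v0c*, without one, passed the floor only through the pre-pro-B library and so had to be lower. The 2 shares are therefore not a free comparison. Genes with several starts offer more bases to match, and a match describes the letters alone.

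**Figure D1:**
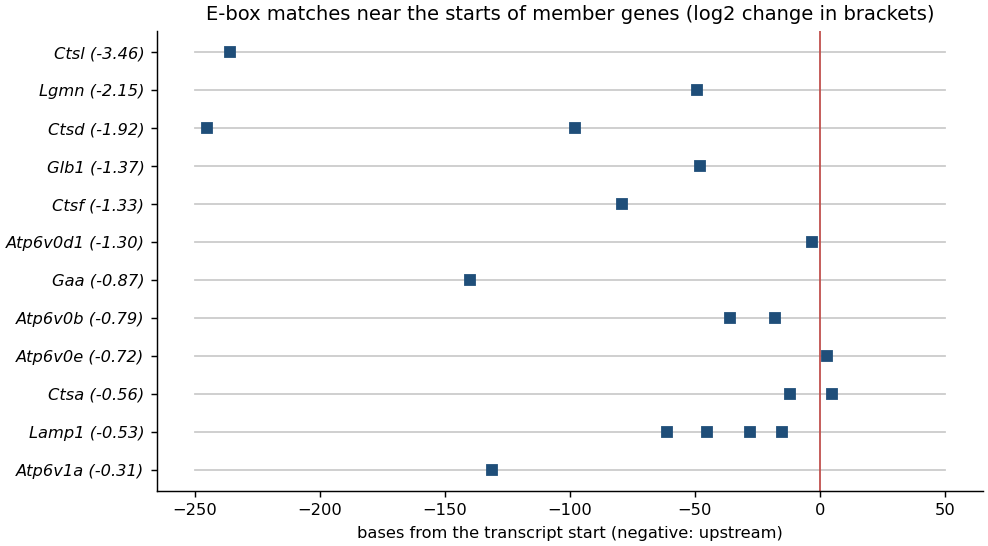
Positions of E-box matches (squares) in bases from the transcript start (red line at 0, negative values upstream) for the 12 member genes that hold one, ordered by their log2 change, which stands in brackets. Matches occur both in genes with large changes, such as Ctsl at -3.46, and in genes with small ones, such as Atp6v1a at -0.31.

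Taking the members as a whole, 39 of 49 reached an FPKM of 1 in at least 1 library. Of these 39, 18 (46.2%) were lower by 2-fold or more in pro-B cells and 0 were higher by as much. Over the 10528 genes tested with the same floor, 19.1% were lower and 12.2% were higher. The median log2 change of the members was -0.97, against -0.14 over all genes tested. Among the 18, *Ctsw*, *Ctsf*, *Lgmn* and *Atp6v0c* passed the floor only through the pre-pro-B library and so had to be lower. The 3 role groups differed in their totals. The summed FPKM of the cathepsins was 437 and 177, a 2.47-fold difference, and that of the other hydrolases and lysosomal proteins was 690 and 274, a 2.52-fold difference. The pump subunits summed to 777 and 510, which is a 1.52-fold difference, whereas the total over all protein-coding genes was 310406 and 337599. The V0 subunits alone summed to 368 and 204, and the V1 subunits to 408 and 305. Since the libraries are bulk RNA, fewer cells that express a gene and less RNA per cell cannot be told apart.

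**Figure D2:**
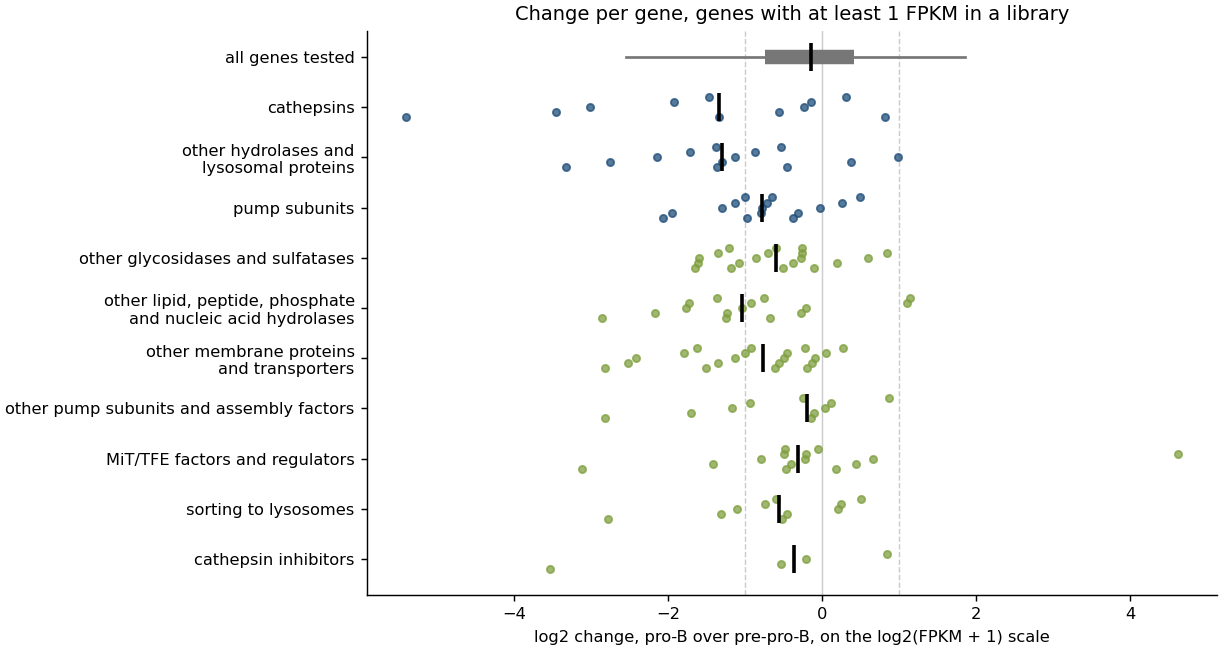
Log2 change per gene (pro-B over pre-pro-B, on the log2(FPKM + 1) scale) for the member groups (blue points) and the other pathway lists (green points), with black ticks at the medians. The grey bar spans the middle 50% and the thin line the middle 90% of the 10528 genes tested. Dashed lines mark 2-fold, and the member medians lie at -1.33, -1.30 and -0.78, left of the -0.14 of all genes tested.

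Among the cathepsins, 6 of 13 were lower by 2-fold or more in pro-B cells (*Ctsw*, *Ctsl*, *Ctss*, *Ctsd*, *Ctso* and *Ctsf*) and 0 were higher by as much. These 6 are 54.5% of the 11 that reached 1 FPKM, against 19.1% of all genes tested. *Ctsh* and *Ctsk* stayed below 1 FPKM in both libraries. The group thus held the largest difference of all members beside genes that hardly differed. The median of the 11 cathepsins that reached 1 FPKM was -1.33, but it was -0.56 over those that reached it in both libraries, a floor that leaves out *Ctsw* and *Ctsf*.

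*Ctsw*, a cysteine cathepsin known from NK cells and cytotoxic T cells, spans positions 5465240 to 5468498 of chromosome 19 in mm9. Its summed FPKM was 46.3 (95% confidence interval 3.30 to 112) and 0.118 (interval 0 to 0.481). This log2 change of -5.40 was the largest of the members, and it stood at percentile 0.570 when the changes of all genes tested are ranked from the lowest. At the stated read depth the pro-B value corresponds to about 13.1 fragments, so the transcript was near the limit of detection there. Of 12 T and NK cell markers, 9 reached 1 FPKM, and these 9 were lower by 2-fold or more in pro-B cells, against 19.1% of all genes tested. The summed FPKM of the 12 was 594 and 3.46. All but *Klrd1* were below 1 FPKM in pro-B cells, so the others called lower passed the floor only through the pre-pro-B library and had to be lower. The lower markers included *Klrd1* (353 and 2.89), *Cd7* (79.3 and 0.162), *Gzma* (56.3 and 0.123) and *Nkg7* (31.3, and listed at 0). *Gzmb* was listed at 0 in both libraries and *Cd3e* was below 1 in both (0.239 and 0.102). Their part in the result was not tested.

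*Ctsl*, a broadly acting endopeptidase (chromosome 13, 64464522 to 64471614), measured 58.2 (interval 11.7 to 104) and 4.39 (interval 0.0200 to 9.24). *Ctsl* and *Ctsw* were the only members whose intervals did not overlap between the libraries, 2 of the 45 member transcripts that reached 1 FPKM, whereas 4.4% of all 12875 protein-coding transcripts with that level had such intervals, so that this count is close to the background. *Ctss*, the cathepsin best known for degrading the invariant chain in B cells and dendritic cells (chromosome 3, 95330708 to 95360325), had summed FPKM of 51.4 and 5.48. Its more abundant transcript, NM_021281, had 45.5 (interval 2.61 to 91.2) and 5.48 (interval 0.0687 to 13), so its intervals overlapped although the difference was 9.37-fold for the gene.

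*Ctsd*, the main aspartic protease of lysosomes (chromosome 7, 149557053 to 149573943), was the most abundant cathepsin in pre-pro-B cells at 112 FPKM (interval 4.15 to 242), against 28.9 (interval 1.54 to 64.1) in the pro-B library. *Ctso* had 18.1 and 5.95 FPKM. *Ctsf* had 1.58 and 0.0220, the latter worth about 3.90 fragments. These 3 genes are set together because each was called lower, so their shared direction is no further result. Their FPKM in pre-pro-B cells ranged from 1.58 to 112.

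The remaining cathepsins above 1 FPKM differed by less than 2-fold on the scale with the pseudocount. *Ctsc*, the dipeptidyl peptidase that activates granule serine proteases, had 38.2 and 34.5 FPKM. *Ctsb*, a cysteine protease with endopeptidase and carboxypeptidase activity, had 33.0 and 27.9, and *Ctsa*, a serine carboxypeptidase that also protects β-galactosidase and neuraminidase, had 51.2 and 34.4. *Ctsz*, a carboxypeptidase, was slightly higher in pro-B cells (24.4 and 30.4), as was the aspartic protease *Ctse* (2.24 and 4.72, a log2 change of 0.82 with the pseudocount and a 2.11-fold FPKM ratio without it). All of these had overlapping intervals. Cuffdiff estimated *Ctsa* in a common locus with *Pltp* and *Neurl2*, *Ctsb* with *Fdft1* and *Ctsz* with *Nelfcd*.

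By these FPKM estimates the make-up of the cathepsin mRNA pool differed between the libraries. In pre-pro-B cells *Ctsd* held 25.6% of the summed cathepsin FPKM, followed by *Ctsl* (13.3%), *Ctss* (11.7%), *Ctsa* (11.7%) and *Ctsw* (10.6%). In pro-B cells the order was *Ctsc* (19.5%), *Ctsa* (19.4%), *Ctsz* (17.2%), *Ctsd* (16.3%) and *Ctsb* (15.7%), whereas *Ctss* held 3.09% and *Ctsl* 2.48%. The 5 leading cathepsins of pro-B cells lay within 27.9 and 34.5 FPKM, and their order is not separated by their intervals. In pre-pro-B cells the intervals of the leading cathepsins overlapped one another too, so that order is not separated either.

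**Figure D3:**
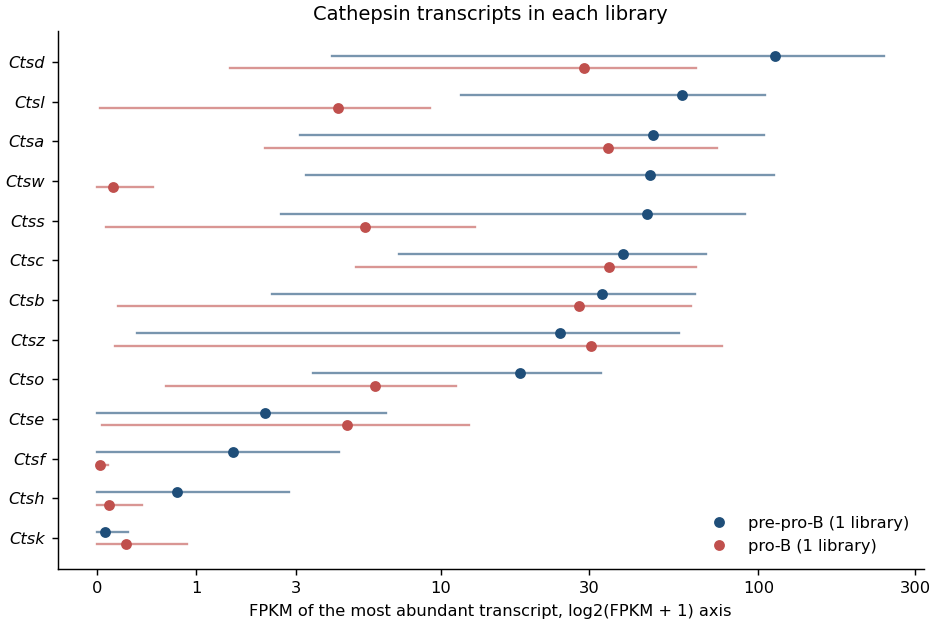
FPKM of the most abundant transcript of each of the 13 cathepsins in pre-pro-B cells (blue) and pro-B cells (red), 1 library each, on a log2(FPKM + 1) axis. Horizontal lines are Cuffdiff's 95% confidence intervals, which part only for Ctsl (58.2 and 4.39) and Ctsw (46.3 and 0.118) among the members that reached 1 FPKM.

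Of the other 13 listed members, all of which reached 1 FPKM, 8 (61.5%) were lower by 2-fold or more in pro-B cells and 0 were higher by as much. Over all genes tested 19.1% were lower, and the median log2 change of these 13 members was -1.30. Each of the glycosidases among them had a lower value. *Man2b1*, the lysosomal α-mannosidase, had an FPKM of 30.1 (interval 4.03 to 56.2) and 8.45 (interval 0.301 to 16.8). *Glb1*, which encodes β-galactosidase and shared its Cuffdiff locus with *Tmppe*, had 24.4 and 8.83, and *Gusb*, which encodes β-glucuronidase, had 33.6 and 13. *Hexa*, the α subunit of β-hexosaminidase, had 5.28 and 1.42. *Gaa*, the glucosidase that digests glycogen, had 8.37 and 4.11, a difference just short of 2-fold with the pseudocount (log2 change -0.87).

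*Lgmn*, or legumain, is an asparaginyl endopeptidase that also processes cathepsin precursors, and it was the protease outside the cathepsins. It had an FPKM of 6.67 (interval 0.169 to 23.9) and 0.733 (interval 0 to 3.44). *Lipa*, the acid lipase that releases cholesterol from its esters, was among the few members that were not lower, at 9.34 and 12.4.

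Genes of lipid handling included the largest differences of this group. *Npc1*, the membrane protein that exports cholesterol from lysosomes (chromosome 18, 12348202 to 12394909), measured 45.4 (interval 1.70 to 92.8) and 3.62 (interval 0 to 10.4). *Npc2*, the soluble protein that hands cholesterol to Npc1, had 81.9 (interval 17.3 to 146) and 36.9 (interval 7.58 to 66.1). The partners thus differed unequally, 12.5-fold and 2.22-fold. *Npc1* was estimated in a common locus with *Rmc1*. *Psap*, the precursor of the saposins that assist sphingolipid hydrolases (chromosome 10, 59740375 to 59765345), was the most abundant of the 26 listed members in pre-pro-B cells at 237 FPKM and had 34.3 in pro-B cells. Of its 6 RefSeq transcripts, 3 were listed at 0 in both libraries, and NM_001146124 carried most of the total, with 188 (interval 3.62 to 416) and 26.4 (interval 0.802 to 55.5). Each of its other transcripts above 0 was also lower in pro-B cells, NM_001146122 with 42.6 and 7.25 and NM_001146120 with 6.18 and 0.656.

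The structural membrane proteins differed by less than 2-fold. *Lamp1* had 106 and 73.0 FPKM, and *Lamp2*, which also serves chaperone-mediated autophagy, had 99.7 and 72.2. They took ranks 2 and 3 of this group behind *Psap* in pre-pro-B cells and ranks 1 and 2 in pro-B cells. *Tfeb*, the regulator of lysosomal genes, was low in both libraries and higher in pro-B cells, at 1.94 and 4.84 FPKM (log2 change 0.99), which is opposite in sign to most of the members. Its main transcript, NM_001161722, had 1.54 (interval 0 to 4.10) and 3.84 (interval 0.0298 to 8.98).

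**Figure D4:**
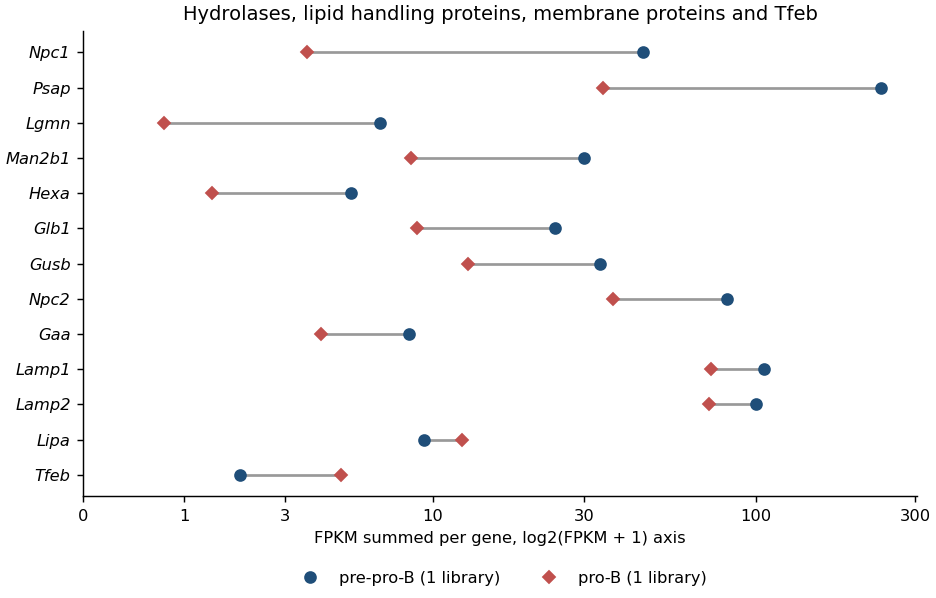
FPKM summed per gene of the 13 other hydrolases and lysosomal proteins in pre-pro-B cells (blue circles) and pro-B cells (red diamonds), 1 library each, on a log2(FPKM + 1) axis, ordered by their change. Npc1 and Psap show the longest bars, Lamp1 and Lamp2 stay at 72 or more in both libraries, and only Lipa and Tfeb lie higher in pro-B cells.

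The pump values lay closer together in the 2 libraries. Of 23 genes with the Atp6v prefix, 15 reached 1 FPKM, 4 of these were lower by 2-fold or more in pro-B cells (*Atp6v0a1*, *Atp6v0c*, *Atp6v0d1* and *Atp6v1g2*) and 0 were higher by as much, with a median log2 change of -0.78. These 4 are 26.7% of the 15, not far from the 19.1% of all genes tested, and *Atp6v0c* passed the floor only through the pre-pro-B library. The 8 below that level were mostly isoforms known from kidney, osteoclasts, brain or testis (*Atp6v0a4*, *Atp6v0d2*, *Atp6v0e2*, *Atp6v1b1*, *Atp6v1c2*, *Atp6v1e2* and *Atp6v1g3*), and also *Atp6v1fnb*, which is named as a neighbor of *Atp6v1f*. *Atp6v1fnb* had 0.682 and 0.504 FPKM, and none of the other 7 exceeded 0.0248 in either library. *Ctsh* (0.751 and 0.0880) and *Ctsk* (0.0582 and 0.228), the remaining members under the floor, were low as well.

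In the V1 sector the subunits of the catalytic head differed by less than 2-fold. *Atp6v1a*, the ATP-binding A subunit, had 39.7 and 31.9 FPKM, and *Atp6v1b2*, the B subunit, had 49.3 and 28.2. The stalk and regulatory subunits went in both directions. *Atp6v1c1* (34.4 and 48.6) and the D subunit gene *Atp6v1d* (41.1 and 49.2) were higher in pro-B cells, *Atp6v1h* was level (38.8 and 38.3), and *Atp6v1e1* (78.9 and 39.7) and *Atp6v1f* (92.2 and 45.7) lay close to 2-fold lower. *Atp6v1g1* had 29.1 and 22.1, and its paralog *Atp6v1g2*, known from neurons, had 4.58 and 1.55. The Cuffdiff intervals of each V1 subunit overlapped between the libraries, and *Atp6v1b2* was estimated in a common locus with *Slc18a1*.

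In the V0 sector the 6 genes with the Atp6v prefix that reached 1 FPKM were lower in pro-B cells. *Atp6v0e* was the most abundant pump transcript in both libraries, with 260 FPKM (interval 44.6 to 447) and 157 (interval 27.6 to 274). *Atp6v0d1*, which couples the sectors, had 44.4 (interval 3.05 to 91.4) and 17.4 (interval 0.489 to 38.6), and *Atp6v0b* had 27.7 and 15.5. *Atp6v0c*, which encodes the proteolipid of the rotor ring, had only 6.67 and 0.996. This value is uncertain because 88.1% of the 32-base stretches of its transcript occur elsewhere in mm9, and the same held for 71.5% of *Atp6v1g1* and 47.5% of *Atp6v1f*, while no other member exceeded 7.54%. Reads shared with such copies were divided by Cuffdiff's multi-read correction, and the pseudogene transcript NR_037854 (*Atp6v0c-ps2*) was listed at 0 in both libraries.

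Subunit a, which forms the proton half-channels and exists as 4 isoforms, was examined further after its values were seen, together with *Tcirg1*, which encodes isoform a3 and lacks the Atp6v prefix. *Atp6v0a1* (chromosome 11, 100870766 to 100925033) had 13.4 and 2.43 FPKM, and *Atp6v0a2* had 16.7 and 10.3. *Tcirg1* went the other way, with 20.4 and 38.1, a 1.87-fold difference. The 4 isoforms together had 50.5 and 50.8 FPKM, so that the total was level while the share of *Tcirg1* was 40.4% and 75% and that of *Atp6v0a1* was 26.5% and 4.78%. Nearly all *Atp6v0a1* FPKM came from NM_001243050, with 13.4 (interval 0.261 to 26.5) and 2.42 (interval 0 to 5.80), which overlap.

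**Figure D5:**
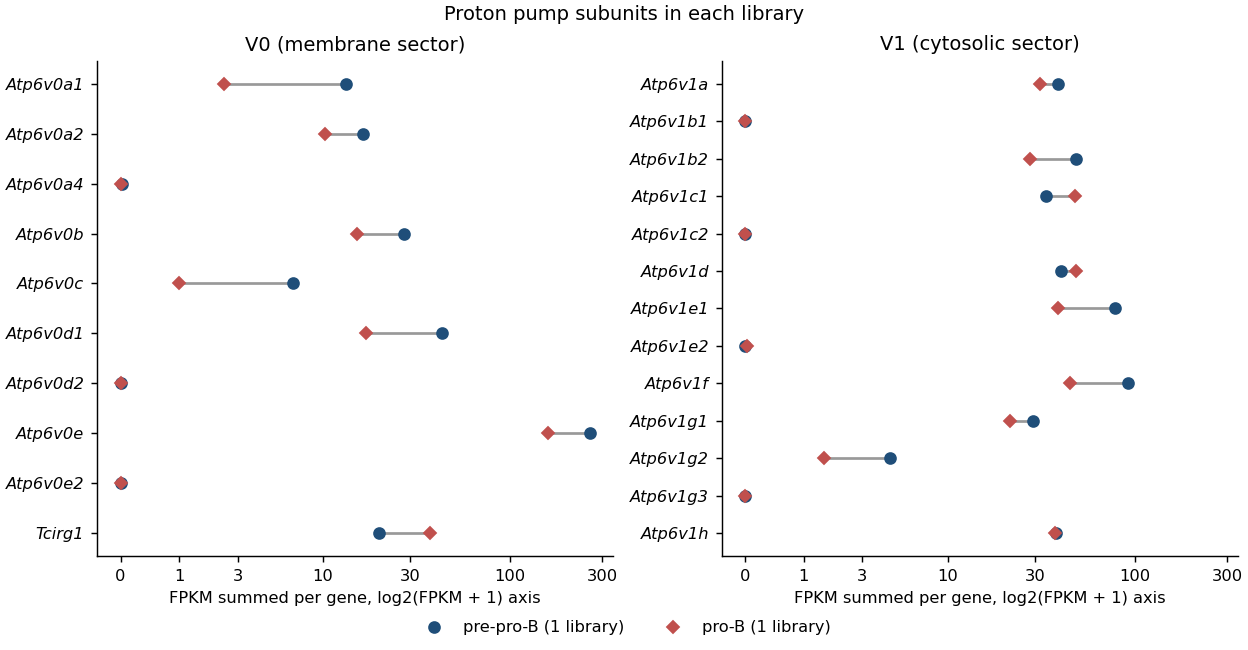
FPKM summed per gene of the V0 subunits with Tcirg1 (left) and of the V1 subunits (right) in pre-pro-B cells (blue circles) and pro-B cells (red diamonds), 1 library each, on a log2(FPKM + 1) axis. The V0 genes with the Atp6v prefix and 1 FPKM or more lie lower in pro-B cells, Tcirg1 lies higher (20.4 and 38.1), and the V1 subunits lie on both sides.

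The other genes of the pathway were examined as lists, and their shares stand against 19.1% lower and 12.2% higher over all genes tested. Of 20 other glycosidases and sulfatases, 19 reached 1 FPKM, and 7 of these (36.8%) were lower by 2-fold or more in pro-B cells and 0 were higher (median log2 change -0.60). They included *Hgsnat* (11.3 and 3.06 FPKM), *Manba* (23.9 and 8.79) and *Arsb* (17.8 and 7.14), enzymes of heparan sulfate, mannoside and dermatan sulfate breakdown. Of 17 other hydrolases of lipids, peptides, phosphates and nucleic acids, 15 reached 1 FPKM, of which 8 (53.3%) were lower and 2 were higher (median -1.04). Among these, *Gm2a*, the activator that presents GM2 ganglioside to β-hexosaminidase, had 48.1 and 5.74 FPKM, the acid DNase gene *Dnase2a* had 16.8 and 2.94, the phospholipase gene *Pla2g15* had 13.1 and 3.12, and the acid ceramidase gene *Asah1* had 65.6 and 19.1. The genes that were higher were *Ppt2* (0.437 and 2.17) and *Acp2* (4.36 and 10.5), a thioesterase and an acid phosphatase.

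Of 23 other membrane proteins and transporters, 20 reached 1 FPKM, and 8 of these (40.0%) were lower and 0 were higher in pro-B cells (median -0.77). The calcium channel gene *Mcoln2* had 19.3 and 2.81 FPKM, *Laptm5*, a lysosomal protein of hematopoietic cells, had 275 and 107, and *Sidt2* had 15.4 and 6.51. Of the 10 further pump-associated genes above 1 FPKM, 3 (30.0%, against 19.1% of all genes tested) were lower and 0 were higher (median -0.19), among them the accessory subunit *Atp6ap1* (86.3 and 37.9) and *Rogdi* (18.2 and 1.72). The third was *Dmxl2* (2.35 and 0.0310), a regulator of pump assembly, which passed the floor only through the pre-pro-B library and had to be lower. Of 10 genes that sort enzymes to lysosomes, 3 (likewise 30.0%) were lower and 0 were higher (median -0.56), and *Igf2r*, the cation-independent mannose 6-phosphate receptor, had 71.9 and 9.57. The others were *Gnptg* (9.13 and 3.08) and *Sort1* (2.89 and 0.815). *Sort1* likewise passed the floor only through the pre-pro-B library and had to be lower.

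Among 14 measured MiT/TFE factors and their regulators, 2 (14.3%) were lower and 1 was higher (median -0.31), and the share of lower genes is below the 19.1% of all genes tested. The gene that was higher, *Rragd*, encodes a Rag GTPase that recruits mTORC1 to the lysosome, and it had 1.73 and 66.2 FPKM, the largest difference toward pro-B cells in any of these lists. *Lamtor3*, a part of the Ragulator complex that anchors the Rag GTPases, had 19.95 and 6.88, and *Fnip2*, a partner of folliculin, had 8.21 and 0.0643. *Fnip2* passed the floor only through the pre-pro-B library and had to be lower. Of the cathepsin inhibitors, 4 reached 1 FPKM and 1 of them, *Cst7* (cystatin F, an inhibitor of lysosomal cysteine cathepsins in immune cells), was lower at 70.0 and 5.13. That is 25%, not far from the 19.1% of all genes tested. The other 3 differed by less than 2-fold, 1 of them toward pro-B cells.

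Markers of other cell types were read beside the members, and over all genes tested 19.1% were lower and 12.2% were higher. Of the macrophage, granule and dendritic cell markers called lower, only *Ccr2*, *Itgam* and *Bst2* reached 1 FPKM in pro-B cells. The rest passed the floor only through the pre-pro-B library and so had to be lower. Of 16 macrophage and monocyte markers with a value, 6 reached 1 FPKM, and these 6 were lower by 2-fold or more in pro-B cells. The 16 had a summed FPKM of 194 and 21.2, most of it from *Ccr2* (134 and 14.6). The others that were lower were *Ly6c2* (21.8 and 0.0803), *Itgam* (19.7 and 6.40), *Adgre1* (11.7 and 0.111), *Lyz2* (5.39, and listed at 0) and *Cx3cr1* (1.46, and listed at 0). Of the same list, *C1qa*, *C1qb*, *C1qc*, *Fcgr1*, *Lyz1* and *Ms4a7* were listed at 0 in both libraries, and *Csf1r* had 0.170 and was listed at 0. Of 12 neutrophil and mast cell granule genes, 3 reached 1 FPKM and were lower, *Mpo* (35.7 and 0.122), *Cpa3* (10.5 and 0.0296) and *S100a8* (1.24, and listed at 0). The 12 had a summed FPKM of 47.9 and 0.152, with *Elane* and *S100a9* listed at 0 in both libraries. Of 8 dendritic cell markers, 4 reached 1 FPKM and were lower. They were *Flt3*, a gene also of early progenitors (303 and 0.916), *Siglech* (54.3 and 0.236), *Bst2* (39.3 and 2.59) and *Itgax* (8.07 and 0.294). The 8 had a summed FPKM of 405 and 4.14, while *Clec9a* and *Cd209a* lacked any FPKM in the pre-pro-B library. The 16 stromal markers, read for carried-over OP-9 cells, summed to 24.3 and 21.7 FPKM. Most of the pre-pro-B sum came from the 1 that was lower by 2-fold, *Pdgfrb* (15.9 and 0.377). In pro-B cells 3 were higher by as much (*Col1a2*, 0.707 and 2.82, *Acta2*, 0.608 and 2.39, and *Cxcl12*, 0.618 and 2.92). *Pdgfrb* and these 3 passed the floor through 1 library only, which fixed their direction. Of the rest, *Thbs1* was lower (1.54 and 0.480) and *Dcn* and *Postn* were listed at 0 in both. Each remaining stromal marker had a higher value in pro-B cells, at most 5.04 FPKM (*Bgn*, 2.52 and 5.04). Each erythroid and osteoclast marker stayed below 1 FPKM in both libraries, with sums of 1.4 and 0.232 and of 0.564 and 0.723. The part of these markers in the lower cathepsin and hydrolase values of pro-B cells was not tested.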

How the data were processed

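RNA depleted of ribosomal and small RNAs was sequenced as strand-specific single-end libraries, 1 per cell type. The authors trimmed the reads, aligned them to mm9 with TopHat (1.5 in the submitters' processing notes) and estimated FPKM for RefSeq transcripts with Cuffdiff 2.1.1, with multi-read and bias correction and no scaling between the libraries. The deposited FPKM are thus model estimates without counts, and depth per transcript was approximated from its length and the stated 90000000 reads. A further deposited table repeats the FPKM (6 of 30485 transcripts differ, 0 of them members) beside the authors' fold changes, p-values and q-values, which were not used.

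Of 26580 protein-coding accessions, 26173 were matched to symbols in a RefSeq gene table of GRCm38.p6, used for names. FPKM were summed per gene, genes with at least 1 FPKM in a library were held against a 2-fold change with a pseudocount of 1, and no p-values were computed. Gene coordinates are those of GENCODE on mm9. Members, lists and alternatives were chosen with earlier results of these data known. All members are reported. In each pathway list, genes past 2-fold with at least 10 FPKM in a library were named, up to 4 per list (2 such genes are not reported here), and members of small counts outside this rule were named after their values were seen. Promoters and repeated stretches were located in the mm9 sequence. The fold calls were tested on simulated data with counting noise only, and the changes planted there exceeded 2-fold, in genes of at least 10 FPKM. That test therefore cannot speak for calls near 2-fold, for genes near 1 FPKM or for variation between libraries. Scripts were written in Python 3.11.15 with pandas 2.3.3, matplotlib 3.10.9 and numpy 2.4.6.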

Additional observations from a re-analysis of the deposited data

How the results depend on the processing

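Other pseudocounts, floors, scalings, the most abundant transcript, OK statuses only and the FPKM of the second deposited table were tried. Of the 18 members lower by 2-fold or more in pro-B cells, all 18 stayed so under each of these except a floor of 1 FPKM in both libraries, which kept 14 and left out *Ctsw*, *Ctsf*, *Lgmn* and *Atp6v0c*, and 0 turned in sign. Under that floor 14 of 35 members were lower, against 998 of all 8852 genes (11.3%), where the main setting had 2013 of 10528 genes (19.1%). The same floor moved the cathepsin median from -1.33 to -0.56, and with no floor this median was -0.69 and that of the pump -0.31. With a pseudocount of 0.1, *Ctse* and *Tfeb* were more than 2-fold higher, 1 cathepsin and 1 other member, and *Atp6v1f* and *Gaa* joined the lower members (20 of 39). Of all 10528 genes 2326 were then lower (22.1%) and 1494 higher. With no pseudocount, over genes above 0 in both libraries, 2 cathepsins (*Ctse* and *Ctsk*) and 1 other member (*Tfeb*) were higher. There *Atp6v1f*, *Gaa* and *Ctsh* joined the lower members (21 of 42). Of all 12076 genes so measured 2663 were lower (22.1%) and 2074 higher, against 2013 lower and 1284 higher of 10528 in the main setting. Taking the most abundant transcript added *Gaa* to the lower members, with 2066 of all 10502 genes lower (19.7%). Median-ratio scaling made 1 other member, *Tfeb*, 2-fold higher, with 1413 of all 10556 genes higher and 1892 lower (17.9%). Rescaling to TPM shifted the median of all genes by -0.11 and added *Atp6v1e1* and *Atp6v1f* to the lower members (20 of 39). Of all 10503 genes 2210 were lower on that scale (21.0%). No paired analysis was possible because each cell type has 1 library. For the same reason no library could be left out, and Cuffdiff's intervals cover the estimate within a library only.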
